A study of Homo sapiens with 2 samples.

Results

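The genes described here are the Notch receptors NOTCH1, NOTCH2 and NOTCH3, their ligands JAG1, JAG2 and DLL1, the transcription factor RBPJ, its coactivator MAML2 and the target genes HES1 and HEY1. All probe sets whose array annotation gave exactly 1 gene, that gene being one of these 10, were taken. This gave 28 probe sets, of 41097 probe sets that name 1 gene and of 54675 in all. Affymetrix Human U133 Plus 2.0 arrays were hybridised with RNA of A549 cells, a human lung adenocarcinoma line. A549-LV5 cells carried the LV5 lentiviral control vector, named A549-ZNF300-NC in the study, and A549-ZNF300 cells carried LV5 with the coding sequence of ZNF300, a zinc finger protein, so that both populations had been exposed to lentivirus. The labels name no drug. The study used this pair to profile the genes that respond to ZNF300, and there was 1 array per condition. The differences below therefore have no replicate error and carry no p-value. Whether a cell population was 1 clone, and which promoter drove ZNF300, are not given in the sources used here.

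Notch receptors are single-pass membrane proteins that are switched on by ligands on neighbouring cells. Ligand binding lets ADAM proteases and then γ-secretase cut the receptor, and the freed intracellular domain enters the nucleus, where it joins RBPJ and a Mastermind coactivator at target promoters. Without that domain, RBPJ recruits corepressors. HES and HEY proteins, the classical products of the target genes, are transcriptional repressors. In the lung, Notch signalling is known for its part in the choice between secretory and ciliated cells of the airway.

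The DNA sequence that RBPJ reads is short, so it is shown here for 3 target genes that came out on different sides of the comparison. The core TGGGAA was searched on both strands of the RefSeq promoter windows (GRCh38.p14), which run from 250 bases before to 50 bases after a start site. The sequences run 5′ to 3′ on the strand of the gene, stop before the start site, and have each match to the core in capitals. A core on the opposite strand reads TTCCCA. They lie at chr3:194136004-194136143 on the plus strand for HES1, at chr1:1000108-1000233 on the minus strand for HES4 and at chr6:125749382-125749484 on the plus strand for HEY2.
HES1: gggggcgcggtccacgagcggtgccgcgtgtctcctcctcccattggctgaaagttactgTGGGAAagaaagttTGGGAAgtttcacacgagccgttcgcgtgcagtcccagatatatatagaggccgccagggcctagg
HES4: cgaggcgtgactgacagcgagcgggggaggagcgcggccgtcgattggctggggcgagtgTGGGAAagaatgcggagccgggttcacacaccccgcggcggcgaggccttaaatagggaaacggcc
HEY2: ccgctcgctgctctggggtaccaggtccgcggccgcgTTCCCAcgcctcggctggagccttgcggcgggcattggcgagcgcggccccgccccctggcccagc
The exact matches of HES1 begin 84 and 70 bases before the start site, with 8 bases between them, and lie on the same strand. HES4 holds 1 exact match, and the window of HEY2 holds a second one across its start site. Variants of the core were not searched and are not in capitals, so the matches do not show which sites form a pair or how a pair is oriented. Of all 35116 promoter windows, 24.0% held at least 1 core and 3.80% held at least 2. Of the Notch genes, 8 had a window, and the core lay in that of HES1 and in 1 of the 5 windows of RBPJ. The palindromic E-box CACGTG lay in none of these windows and in 7.26% of all windows. A match is a run of letters and not a measured binding site.

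The array values are log2 signals as the authors deposited them. Detection was set by the array medians: a probe set whose signal reached the median of either array was called detected, and a gene took the one of these with the highest mean signal. The medians were 6.14 in A549-LV5 and 6.03 in A549-ZNF300. The log2 signal of ZNF300 itself was 4.16 in A549-LV5, where it was called absent, and 8.91 in A549-ZNF300, where it was called present. Of the A549 markers, all 5 NRF2 target genes were above the median in both arrays. The 6 epithelial markers were all at least 2-fold higher in A549-ZNF300, and 2 of them, KRT19 and CDH1, were called absent in A549-LV5, with log2 signals of 2.29 and 1.20 against 11.08 and 10.94. The log2 of the summed linear signals of the 6 was 13.65 in A549-LV5 and 16.22 in A549-ZNF300. Of the markers of other cell types, each read from its probe set of highest mean signal, 3 of 5 for blood, 1 of 4 for endothelium and 0 of 4 for fibroblasts were above the median in each array, and none exceeded a log2 signal of 7.88. A second probe set of the fibroblast marker LUM was called absent in A549-LV5 and present, at 6.30, in A549-ZNF300. The epithelial markers differed between the same 2 arrays as every Notch gene below, and their part in those differences was not tested.

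The Notch genes went both ways. Of the 10 genes, 5 had a higher signal and 5 a lower one in A549-ZNF300, with 1 at least 2-fold higher (JAG1) and 2 at least 2-fold lower (NOTCH2 and DLL1). Over the 13221 detected genes, 13.6% passed 2-fold upwards and 15.4% downwards, so shares of 1 and 2 genes in 10 lay near the background. The median log2 difference, here always A549-ZNF300 minus A549-LV5, was 0.20 over the 10 genes and -0.06 over all detected genes. By probe set, 20 were detected, 4 of them at least 2-fold higher and 4 lower, where 13.6% and 15.4% of 25145 detected probe sets were. All 4 higher ones belong to JAG1, and of the lower ones 3 belong to NOTCH2 and 1 to DLL1, so these counts repeat the same genes. The 8 undetected probe sets of the Notch genes lay below the median of both arrays. Of these, 5 were at least 2-fold apart, as were 53% of all 15952 undetected probe sets, so they carry little information. The plot of signals by probe set shows both arrays for every probe set.

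**Figure D1:**
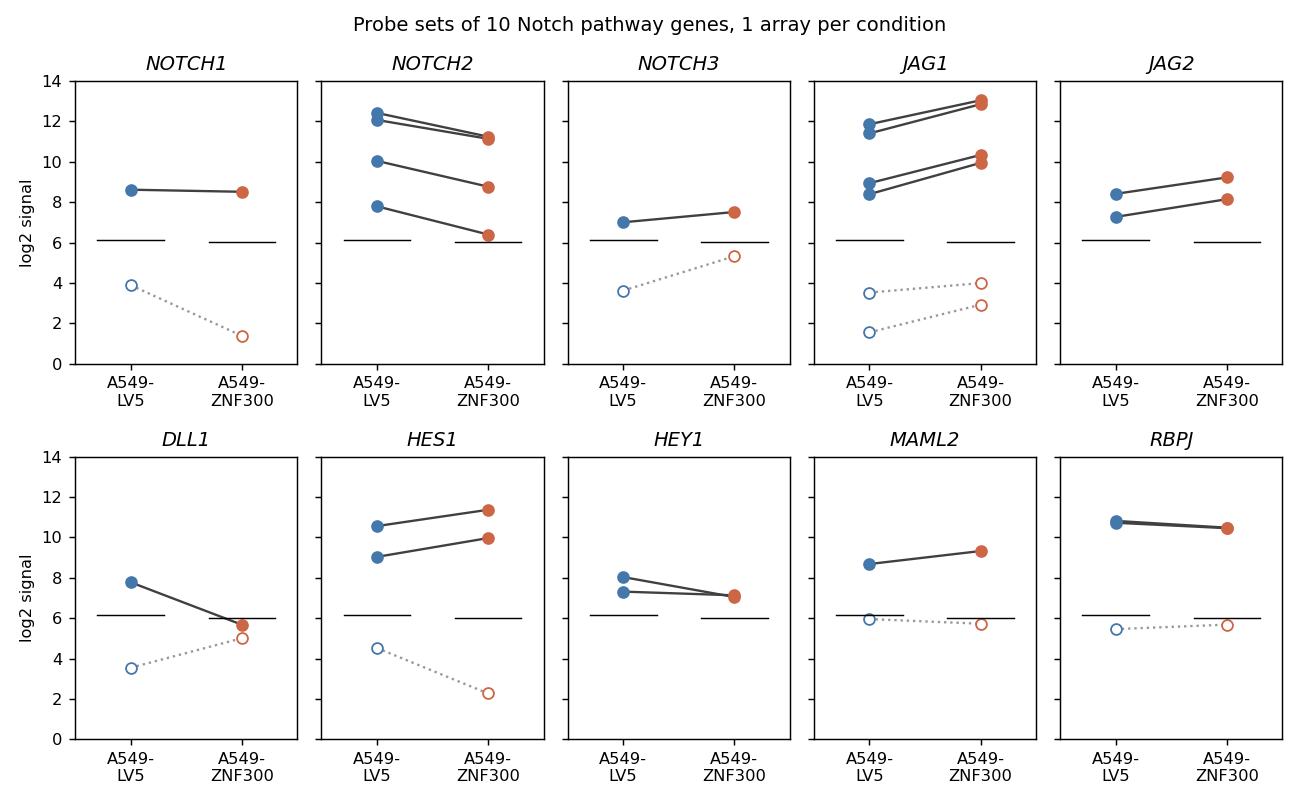
Log2 signal (vertical axis) of each probe set in the A549-LV5 array (left, blue) and the A549-ZNF300 array (right, orange), 1 panel per gene and 1 array per condition, without error bars. Filled points joined by solid lines are detected probe sets, open points with dotted lines are undetected ones, and the short black bars are the array medians of 6.14 and 6.03. All 4 detected probe sets of NOTCH2 slope down and all 4 of JAG1 slope up.

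Among the receptors, NOTCH2 was lower in A549-ZNF300 on each of its 4 probe sets, all of them detected. Probe set 202443_x_at had a log2 signal of 12.42 in A549-LV5 and 11.24 in A549-ZNF300, a log2 difference of -1.18, or 2.26-fold lower. Probe set 212377_s_at went from 12.07 to 11.14, which was -0.93 and just short of 2-fold. The remaining pair, 210756_s_at and 202445_s_at, had log2 differences of -1.28 and -1.40. The SD between the 4 differences was 0.20, but probe sets share the same 2 arrays and are not replicates. Of all detected genes, 12.2% had a lower log2 difference than NOTCH2.

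NOTCH2 has partial copies on the same chromosome, the NOTCH2NL genes, which encode shortened NOTCH2-like proteins. The probe set of NOTCH2NLA, looked at after the values of NOTCH2 were seen, had a log2 signal of 12.09 in A549-LV5 and 10.52 in A549-ZNF300, a log2 difference of -1.57. The only probe set annotated to NOTCH2 together with these copies went the other way, from 8.86 to 9.19. How far each NOTCH2 probe set also reads the copies was not tested.

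The other receptors were under 2-fold apart. NOTCH1, the founding member of the family, had a log2 signal of 8.62 in A549-LV5 and 8.51 in A549-ZNF300 on its detected probe set, and this log2 difference of -0.10 turned to 0.0047 when each array was centred on its median. NOTCH3, a receptor best known in vascular smooth muscle, had 7.005 and 7.51, a log2 difference of 0.51. A second probe set of each gene lay below both medians. It gave -2.51 for NOTCH1, from signals of 3.89 and 1.38, and 1.70 for NOTCH3, from 3.62 and 5.32, and these values have no measured signal above the array median behind them. NOTCH4, the remaining receptor, had 6.60 in A549-LV5 and 5.90, below the array median, in A549-ZNF300.

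Among the ligands described here, both Jagged genes had higher signals in A549-ZNF300, whereas DLL1 was lower on its detected probe set. DLL3, another Delta-like ligand, had 8.68 in A549-LV5 and 8.83 in A549-ZNF300 on its probe set of highest mean signal. Its other detected probe set went the other way, from 6.23 to 4.65. JAG1, which is mutated in Alagille syndrome, was at least 2-fold higher on each of its 4 detected probe sets. Probe set 209099_x_at had a log2 signal of 11.86 in A549-LV5 and 13.05 in A549-ZNF300, a log2 difference of 1.19, or 2.28-fold higher. The largest difference, 1.55, was that of 209098_s_at, from 8.40 to 9.95. The other detected ones, 216268_s_at and 231183_s_at, gave 1.45 and 1.40, so the highest and lowest of the 4 lay 0.36 apart. Of all detected genes, 89.0% had a lower log2 difference than JAG1. The 2 undetected probe sets of JAG1 gave 0.47 and 1.37 from signals of at most 3.99.

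JAG2 encodes the other Jagged ligand. Its probe set 32137_at had a log2 signal of 8.41 in A549-LV5 and 9.23 in A549-ZNF300, and its probe set 209784_s_at had 7.27 and 8.15. The log2 differences of 0.81 and 0.88 were thus alike and both under 2-fold.

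DLL1, a Delta-like ligand, rested on 1 detected probe set. Probe set 224215_s_at had a log2 signal of 7.78 in A549-LV5, where it was called present, and of 5.68 in A549-ZNF300, where it was called absent. The log2 difference was -2.10 as deposited. With the dim signal raised to the median of its array it was -1.75, that is, at least 3.36-fold lower against that median as a floor. The other probe set, 227938_s_at, lay below both medians and went the other way, from 3.55 to 5.01. On the deposited scale DLL1 had the lowest difference of the 10 genes.

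**Figure D2:**
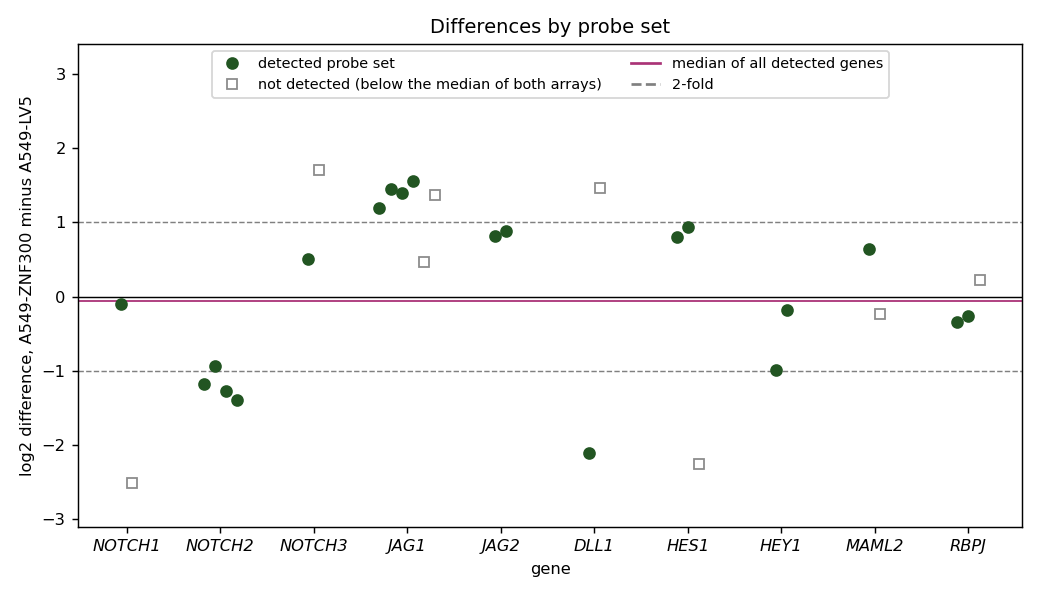
Log2 difference of A549-ZNF300 minus A549-LV5 (vertical axis) for each of the 28 probe sets, by gene (horizontal axis), with filled circles for detected and open squares for undetected probe sets. Dashed lines mark 2-fold and the purple line the median of all detected genes at -0.06. Detected probe sets of a gene lie on 1 side of 0, while in DLL1, HES1, MAML2 and RBPJ an undetected one lies on the other side.

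In the nuclear complex, RBPJ, the DNA-binding protein that all Notch receptors share, was close to level between the arrays. Its detected probe sets had log2 signals of 10.82 and 10.73 in A549-LV5 and of 10.49 and 10.46 in A549-ZNF300. The log2 differences were -0.34 and -0.27. Processed pseudogene copies of RBPJ exist, and whether these probe sets also read them was not tested. MAML2, a Mastermind coactivator that is fused to another gene in mucoepidermoid carcinoma, had 8.69 in A549-LV5 and 9.33 in A549-ZNF300 on probe set 235457_at, a log2 difference of 0.64. Its other probe set lay just below both medians, at 5.96 and 5.73.

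The target genes HES1 and HEY1 went opposite ways. HES1, the repressor whose 2 exact core matches are printed above, had log2 signals of 10.57 and 9.04 in A549-LV5 and of 11.37 and 9.97 in A549-ZNF300 on its 2 detected probe sets. These were log2 differences of 0.81 and 0.93, both under 2-fold, with 83.0% of all detected genes below HES1. Its probe set 203393_at lay below both medians, at 4.53 and 2.27. HEY1, a related repressor, had 8.04 in A549-LV5 and 7.05 in A549-ZNF300 on probe set 44783_s_at, a log2 difference of -0.99. Its probe set 218839_at went from 7.32 to 7.14, which was only -0.18, so the size of the HEY1 difference depends on the probe set. The SD between these 2 differences was 0.57, and 6607 genes with several detected probe sets had a median SD of 0.35. For HES1 and HEY1 alike, RNA levels alone were measured, and receptor cleavage was not.

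Other genes of the pathway were read from lists by role, 66 genes in all, of which 56 were detected. Of these, 7 passed 2-fold upwards and 11 downwards, which is 12.5% and 19.6% beside 13.6% and 15.4% of all genes. Their median log2 difference was -0.27. The plot of the pathway by role shows that most of them lay within 2-fold of no difference.

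**Figure D3:**
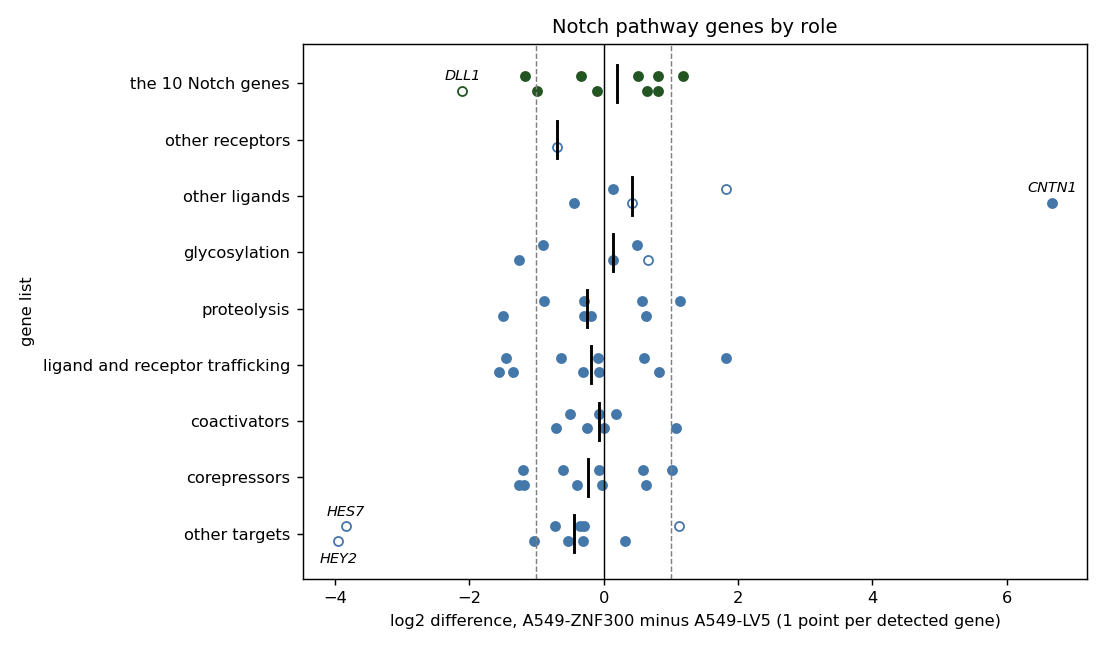
Log2 difference of A549-ZNF300 minus A549-LV5 (horizontal axis), 1 point per detected gene, for the 10 Notch genes (green) and 8 lists of other pathway genes by role (blue), with the median of each list as a vertical bar and 2-fold as dashed lines. Open points are genes below the array median in 1 array, such as HES7 and HEY2, and CNTN1 stands apart at 6.67.

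Of the genes on the list of other targets, 8 of 10 detected ones were lower in A549-ZNF300, 3 of them at least 2-fold. The median log2 difference of the 10 was -0.44. Whether each listed gene, such as HES2 or HES6, responds to Notch was not tested. Over all detected genes, 53.4% were lower and 15.4% at least 2-fold lower. HES4, a HES1 relative with a core printed above, went from 8.96 in A549-LV5 to 7.92 in A549-ZNF300 and was called present in both, a log2 difference of -1.04. HES7, a segmentation clock repressor in the mouse, went from 7.42, called present, to 3.58, called absent, which was at least 2.62-fold lower against the array median. HEY2, a repressor known for its role in the heart, went from 6.77 to 2.82, and with the dim signal raised to the array median its log2 difference was -0.73, so the deposited difference of -3.95 rests on a signal below the median. Its other detected probe set gave -6.64, from 6.97 to 0.33, and -0.94 with the dim signal raised to the median. No detection call was given for either probe set of HEY2, nor for the detected one of HES2. HES2 was the only one at least 2-fold higher, at 1.12 as deposited and 0.39 with its dim signal in A549-LV5 raised to the median. HES1 was thus higher while HES4, which also holds a core, was lower, and the difference between them has no replicate check.

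Of the other ligands, 2 of 5 detected ones were at least 2-fold higher and none was at least 2-fold lower, beside 13.6% and 15.4% of all detected genes. Both are noncanonical ligands that lack the domain by which Delta and Jagged proteins bind Notch. CNTN1, a contactin of the immunoglobulin superfamily, went from 6.60 in A549-LV5 to 13.27 in A549-ZNF300. DNER, a transmembrane protein with EGF repeats, went from 6.10, just below the array median, to 7.92.

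Few of the enzymes that modify and cut the receptor passed 2-fold. Among 5 detected glycosylation genes, 1 did so downwards and 0 upwards. The proteases had 1 gene of 8 in each direction, or 12.5%. Of all detected genes, 13.6% passed upwards and 15.4% downwards, so these small counts lay near the background. Of the glycosylation genes, POGLUT1, which adds O-glucose to the EGF repeats, was 2.39-fold lower, from 10.77 to 9.52, and its other probe set gave -1.30. Of 8 detected protease genes, ADAM17, a sheddase, was 2.83-fold lower, from 12.85 to 11.34, and its 3 probe sets had log2 differences between -1.50 and -1.25. PSENEN, a subunit of γ-secretase, was 2.19-fold higher, from 10.98 to 12.11. ADAM10, the main sheddase of ligand-bound receptors, and NCSTN, another γ-secretase subunit, were both under 2-fold apart, at 0.63 and -0.89, and were chosen after their values were seen.

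Of 10 detected genes of ligand and receptor trafficking, 3 were at least 2-fold lower and 1 was higher, where 15.4% and 13.6% of all detected genes were. FBXW7, the ubiquitin ligase component that marks the Notch intracellular domain for breakdown, was lower on all 3 detected probe sets, with log2 differences between -1.35 and -0.41. NUMB, an endocytic adaptor that antagonises Notch, went from 7.59, called present, to 6.13, called absent. DTX3L, a Deltex-family ligase, was lower at -1.56 and its relative DTX3 was higher at 1.82, from 7.09 to 8.91. DTX3 rested on this probe set alone, as its others lay below both medians and went either way.

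Of 7 detected coactivators only MAML3, a relative of MAML2, reached 2-fold, with log2 signals of 9.96 in A549-LV5 and 11.04 in A549-ZNF300. Among 10 detected corepressors, 3 were at least 2-fold lower and 1 higher, again beside 15.4% and 13.6% of all detected genes. TLE1 and TLE4, Groucho-family corepressors that bind HES proteins, differed in direction. TLE1 went from 10.96 to 11.97, and its 4 detected probe sets gave 0.51 to 1.48. TLE4 went from 11.60 to 10.41, and its 5 detected probe sets gave -1.75 to -0.57. TLE2 of the same family had a log2 difference of -1.20, and L3MBTL3, a chromatin reader that binds RBPJ, had one of -1.25.

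Each Notch gene was also set beside its neighbours on the chromosome, up to 20 detected genes on either side in the RefSeq gene order. The median of the neighbours lay between -0.38 and 0.34. JAG1, JAG2, HES1 and MAML2 lay above the upper quartile of their neighbours, NOTCH2, DLL1 and HEY1 lay below the lower quartile, and the other 3 lay within the quartiles. Quartiles by definition leave many of the neighbours themselves outside, above and below, so these counts do not set the Notch genes apart. Around JAG2 on chromosome 14, 22 of 32 neighbours were lower, with a median of -0.38, while JAG2 itself was higher. Around DLL1 on chromosome 6, 18 of 24 neighbours were lower, also with a median of -0.38, and around NOTCH2 on chromosome 1 the median was -0.32. For 6 of the 10 genes, NOTCH2 and DLL1 among them, the neighbour median had the same sign as the difference of the gene. The part of the neighbours in these differences was not tested. Over all detected genes of a chromosome, the median was -0.52 for chromosome 6, -0.22 for chromosome 1 and 0.34 for chromosome 9. NOTCH1 on chromosome 9 lay below the median of its neighbours, which was 0.34. JAG1 on chromosome 20 had neighbours with a median of 0.03, and its own difference of 1.19 lay above their upper quartile of 0.56.

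**Figure D4:**
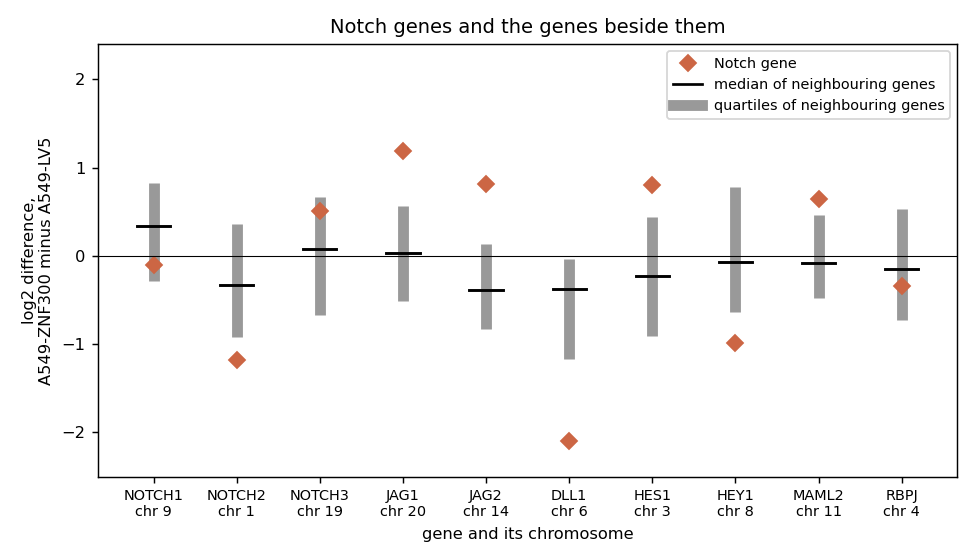
Log2 difference of A549-ZNF300 minus A549-LV5 (vertical axis) of each Notch gene (orange diamond) beside the median (black bar) and the quartiles (grey bar) of up to 40 detected neighbouring genes on its chromosome. Of the 10 genes, 4 lie above and 3 below the quartiles of their neighbours. By definition many of the neighbours themselves also lie outside these quartiles.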

How the data were processed

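Total RNA of 2 cultures was labelled, per the labels, with the GeneChip 3′ IVT PLUS kit and hybridised, 1 array each, so precision is limited by the small number of arrays. For this kit the study's methods instead name 3′ IVT Express. Log2 signals of all probe sets were deposited by the authors. The methods of the study name SCAN/UPC normalisation, the submitters' notes name MAS5 and affy, and which made the values is not stated. A smaller table repeats the signals of 8187 probe sets and holds detection calls that the authors deposited. Of the 28 Notch probe sets it holds 8, the detected ones at least 2-fold apart, so the others have no call. Its ratio columns hold the authors' comparison and were not used. Signals were used without further scaling. With 1 array per condition no test was run. Genes came from the array annotation, and 1801 probe sets of several genes and 11777 of none were left out. The genes, lists and rules were chosen with earlier results of these data known. Named were all 10 genes, ZNF300, the detected pathway genes at least 2-fold apart and otherwise the 2 with the highest signals of a list. NOTCH2NLA, DLL3, ADAM10, NCSTN and the markers KRT19, CDH1 and LUM were named outside this rule, after their values were seen. Alternatives to scaling, background, filter, probe set and fold threshold were tried. The summarising step was tested on simulated data without noise, with the differences of chosen genes set beyond 2-fold. Such data check the calculation and not the precision of the values. Sequences are from RefSeq. Of the 10 genes, 8 matched a promoter window. Python 3.11.15, pandas 2.3.3 and numpy 2.4.6 were used.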

Additional observations from a re-analysis of the deposited data

How the results depend on the processing

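No paired analysis was possible because each condition has 1 array, and for the same reason no replicate could be left out. Of 89 values of single Notch genes under the 10 alternatives to scaling, background, filter and probe set, 86 moved by less than 0.35, the median SD between probe sets of a gene, and none of the genes at least 2-fold apart changed its direction. The log2 difference of HEY1 was -0.59 when its probe sets were summarised by their median and -0.18 without probe sets ending in _x_at or _s_at, and that of DLL1 was -1.75 once dim signals were set to the array median. Without _x_at and _s_at probe sets, 4 of the 10 genes kept a detected probe set and 0 were at least 2-fold higher or lower, since every probe set of JAG1, NOTCH2, NOTCH3 and DLL1 has such a name. With a filter at the 75th percentile, 6 genes were left with a median of 0.73 and 1 was at least 2-fold lower, and 1 was also lower when signals had to reach the median in both arrays, which leaves out DLL1. At 1.5-fold, 4 of the 10 Notch genes were higher and 3 lower, with 12 higher and 18 lower among the 56 other pathway genes, beside 22.5% and 26.5% of all genes. At 3-fold, 0 were higher and 1 was lower, with 3 higher and 2 lower among the others, beside 7.64% and 7.59% of all genes. With the 75th percentile filter, 36 of the other pathway genes were left, of which 5 were at least 2-fold higher and 6 lower, beside 11.6% and 12.5% of all genes. Median centring changed the share of all genes at least 2-fold higher from 13.6% to 15.3% and that lower from 15.4% to 13.4%.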
